A study of Mus musculus with 2 samples.

Results

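Msln, Ly6a, Ly6e, Clu, Anxa1, Wfdc2 and Tm4sf4 are 7 genes used as markers of fetal-like or regenerating intestinal epithelium, and they were taken by symbol as 7 of the 37172 genes in the expression table. Their levels were described cell by cell in mouse small intestinal organoids, which are epithelial structures grown from isolated crypts. The crypts came from C57BL/6 wild-type mice, how many is not stated, and the organoids were examined on day 4 of culture. In 1 culture crypts were embedded in Matrigel, a basement membrane extract, under medium with EGF (50 ng/mL), Noggin (100 ng/mL) and R-spondin1 (400 ng/mL). In the other they were embedded in type I collagen under the same medium with added Wnt3a (100 ng/mL), nicotinamide (10 mM) and BSA (1%). Collagen organoids were released with collagenase (0.5 mg/mL) and Matrigel organoids with a recovery solution, so matrix, medium and release cannot be told apart. Cells carried 1 hashtag per culture, attached through antibodies to EpCAM, and were pooled into 1 library. Each culture is therefore 1 cell suspension, no test across samples was possible, and the intervals below cover counting error only.

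Fetal intestinal epithelium is in a state that is lost as crypts mature and can return after injury, in which crypt stem cell genes are low and a set of surface, secreted and membrane-binding proteins is high. Surface proteins among the 7 are mesothelin (Msln), known from mesothelium, stem cell antigen Sca-1 (Ly6a), and its relative Ly6e, all of which are held in the membrane by a lipid anchor. Secreted proteins are the chaperone clusterin (Clu) and the WAP-domain protein HE4 (Wfdc2). Annexin A1 (Anxa1) binds membrane phospholipids in the presence of calcium, and Tm4sf4 is a multi-pass membrane protein.

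RefSeq promoter sequence (build GRCm38.p6) was at hand for Anxa1, Wfdc2 and Tm4sf4. The 250 bases before each start site are printed 5′ to 3′ on the gene's strand, with motif matches in capitals.
Anxa1: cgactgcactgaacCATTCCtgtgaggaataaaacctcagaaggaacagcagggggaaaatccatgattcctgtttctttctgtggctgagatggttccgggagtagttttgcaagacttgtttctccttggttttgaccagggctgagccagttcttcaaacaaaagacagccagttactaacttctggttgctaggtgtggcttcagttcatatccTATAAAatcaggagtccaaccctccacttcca
Wfdc2: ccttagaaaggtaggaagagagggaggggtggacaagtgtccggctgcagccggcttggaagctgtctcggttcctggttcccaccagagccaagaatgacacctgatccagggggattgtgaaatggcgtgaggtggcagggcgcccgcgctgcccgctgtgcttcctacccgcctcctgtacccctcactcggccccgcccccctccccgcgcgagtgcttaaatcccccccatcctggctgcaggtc
Tm4sf4: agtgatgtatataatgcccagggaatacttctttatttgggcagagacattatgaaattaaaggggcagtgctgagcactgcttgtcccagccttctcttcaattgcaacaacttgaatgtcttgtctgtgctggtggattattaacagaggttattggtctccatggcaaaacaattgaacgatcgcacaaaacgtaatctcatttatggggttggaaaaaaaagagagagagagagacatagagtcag
The windows lie at chr19:20390672-20390921 on the minus strand for Anxa1, at chr2:164562465-164562714 on the plus strand for Wfdc2 and at chr3:57425160-57425409 on the plus strand for Tm4sf4. Motifs were searched on both strands and chosen after the cell values were seen. TGANTCA, the site of AP-1, was in none of these windows and in 6.87% of 27025 promoters of the same length. GGAATG, the core of the TEAD site, matched 236 bases before the Anxa1 start (in capitals, as CATTCC) and occurred in 12.6% of promoters. The TATA box TATAAA matched 32 bases before the Anxa1 start and occurred in 13.0% of promoters. CTTTGA, the core of the TCF/LEF site, had no match in the windows and occurred in 14.1% of promoters. These matches describe letters and not binding.

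Collagen contributed 336 cells with a median of 124619 counts per cell, and Matrigel contributed 1599 cells with a median of 179044. Depth ran from 30139 to 708341 counts in collagen cells and from 30219 to 533149 in Matrigel cells. The 2 cultures shared 0 cell barcodes. Hashtags separated them, with a median collagen share of 99.4% in collagen cells and 0.519% in Matrigel cells. Epcam, the epithelial adhesion gene, had a count in 335 of 336 collagen cells. The mesothelial list stood at 30.9 counts per 1000000 counts (CPM) in collagen and 17.9 CPM in Matrigel, with 9 of 9 genes counted in both. Cpe made up 19.5 CPM of the collagen sum. Upk3b was at 7.04 CPM in collagen and 9.16 CPM in Matrigel, and the defining Wt1 was at 0.403 CPM in collagen. The fibroblast list stood at 19.5 against 6.56 CPM, of which Vim made up 17.5 CPM in 7 collagen cells, and the other 9 genes were each below 0.4 CPM. The endothelial list was at 8.72 against 7.37 CPM with Cldn5 at 0 in collagen, and the immune list at 9.49 against 5.44 CPM with Ptprc at 0.523 CPM.

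Summed over cells, 6 of the 7 markers were at least 2-fold higher in collagen, and Ly6e was the exception. By the same rule 8.21% of 10593 genes reaching 5 CPM were higher in collagen and 8.91% were lower, and no marker was lower. The median log2 ratio of the 7 was 4.49, and that of all 10593 genes was -0.02. The 7 were chosen with results of these cells known, so this count is a description. The levels below show how each sum was spread over cells.

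Msln ran from 0 through a median of 55.7 to 2883 CPM per collagen cell and was found in 207 of 336 cells. In Matrigel its median was 0 and its highest cell 543 CPM, with a count in 99 of 1599 cells. Of those 99 cells, 75 held 1 count or less and only 1 held more than 10. The sums were 184 and 0.845 CPM (log2 ratio 6.65, or 7.61 with 0.1 CPM and 4.16 with 10 CPM added in place of 1 CPM), and 38.6% of the Matrigel sum lay in 1 cell, without which it was 0.519 CPM.

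Ly6a had a median of 0 in collagen, where 151 of 336 cells held it, at up to 3562 CPM. In Matrigel it was found in 53 of 1599 cells, at up to 1395 CPM. The deposited table holds no Ly6a value between 0 and 6 counts, so a cell without Ly6a may have held up to that number. The sums were 232 and 4.47 CPM (log2 ratio 5.41), and with every 0 set to 6 counts the log2 ratio was 2.77. Of the Ly6a values above 0, 8% were not whole numbers, as when reads are shared with a similar gene.

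Ly6e was in nearly all cells of both cultures. Collagen cells ran from 0 through a median of 119 to 1207 CPM, with 296 of 336 positive, and Matrigel cells from 0 through 97.1 to 1121 CPM, with 1482 of 1599 positive. The ranges overlap almost completely, and the sums were 211 and 127 CPM (log2 ratio 0.73).

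Clu ran from 0 through a median of 164 to 12348 CPM in collagen, in 225 of 336 cells. In Matrigel its median was 0 and its maximum 889 CPM, in 201 of 1599 cells. Its lowest value above 0 in the table was 10 counts. The sums were 365 and 15.3 CPM (log2 ratio 4.49, or 2.59 with every 0 set to that lowest value). The cell with most Clu counts held 13.1% of the collagen sum, which was 320 CPM without it.

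Wfdc2 had a median of 0 and a maximum of 1150 CPM in collagen, in 144 of 336 cells, and a maximum of 379 CPM in Matrigel, in 161 of 1599. Its counts were the most concentrated of the 7: the 34 collagen cells with the highest counts held 67.4% of them, against 42.0% for Ly6e. The sums were 114 and 4.51 CPM (log2 ratio 4.38).

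Anxa1 ran from 0 through a median of 21.5 to 4971 CPM in collagen, in 210 of 336 cells. In Matrigel it reached 753 CPM, in 314 of 1599 cells, of which 96 held 1 count or less. The sums were 119 and 4.76 CPM (log2 ratio 4.38). The collagen cell with most Anxa1 counts held 15.5% of the sum, which was 101 CPM without it.

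Tm4sf4 was found in 248 of 336 collagen cells, with a median of 200.3 and a maximum of 3821 CPM. In Matrigel it was in 155 of 1599 cells, at up to 2200 CPM. The sums were 334 and 12.9 CPM (log2 ratio 4.59), or a log2 ratio of 3.14 with every 0 set to 5 counts, the lowest value in the table. In bulk sums such as these, fewer cells with a gene and less RNA per cell cannot be told apart, and the values per cell above give both.

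**Figure D1:**
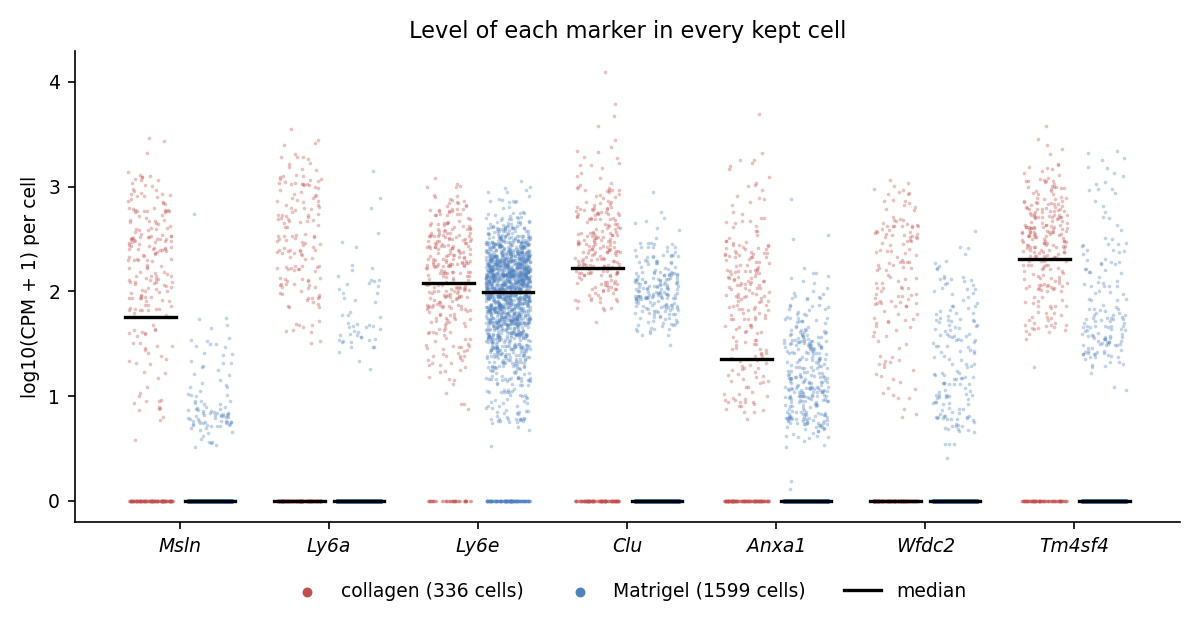
Level of each of the 7 markers in every kept cell, as log10(CPM + 1) on the vertical axis, for 336 collagen cells (red) and 1599 Matrigel cells (blue), with the median as a black line. Matrigel medians sit at 0 except for Ly6e, and collagen medians are above 0 except for Ly6a and Wfdc2.

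To compare shares at equal depth, each cell was thinned at random to 77972 counts. Shallower cells were left out, 72 of 336 in collagen and 122 of 1599 in Matrigel. Values below 6 counts of Ly6a, 10 of Clu and 5 of Tm4sf4 were already missing before thinning, at each cell's own depth. Thinning therefore does not bring these genes to an equal limit of detection. That limit holds wherever equal depth is named below. Msln was then in 55.7% (49.5 to 61.8) of 264 collagen cells and 2.78% (2.00 to 3.75) of 1477 Matrigel cells. The unthinned shares were 61.6% and 6.19%. Tm4sf4 was in 78.0% against 9.00% (unthinned 73.8% and 9.69%), Clu in 71.2% against 13.5% (unthinned 67.0% and 12.6%), and Anxa1 in 59.5% against 14.4% (unthinned 62.5% and 19.6%). Ly6a was in 45.8% against 3.45% (unthinned 44.9% and 3.31%), and Wfdc2 in 41.7% against 8.19% (unthinned 42.9% and 10.1%). Ly6e was in 90.9% (86.8 to 94.1) and 92.8% (91.4 to 94.1), intervals that overlap (unthinned 88.1% and 92.7%).

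Most collagen cells carried several markers at once. At equal depth the median collagen cell held 5 of the 7, 189 of 264 cells (71.6%, 65.7 to 77.0) held at least 4, 22 held all 7, and 0 held none, which allows a share of up to 1.14%. The median Matrigel cell held 1, and 144 of 1477 cells (9.75%, 8.28 to 11.4) held at least 3. With 1 floor of 10 counts for all 7 genes on unthinned cells, these shares were 45.8% and 2.38%. Ly6e alone was the commonest Matrigel combination, in 835 cells, and 67 cells held none. No combination dominated in collagen, where 64 different ones occurred. The commonest held every marker except Wfdc2 (33 cells), followed by all 7 (22 cells) and by Ly6e with Tm4sf4 alone (16 cells).

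**Figure D2:**
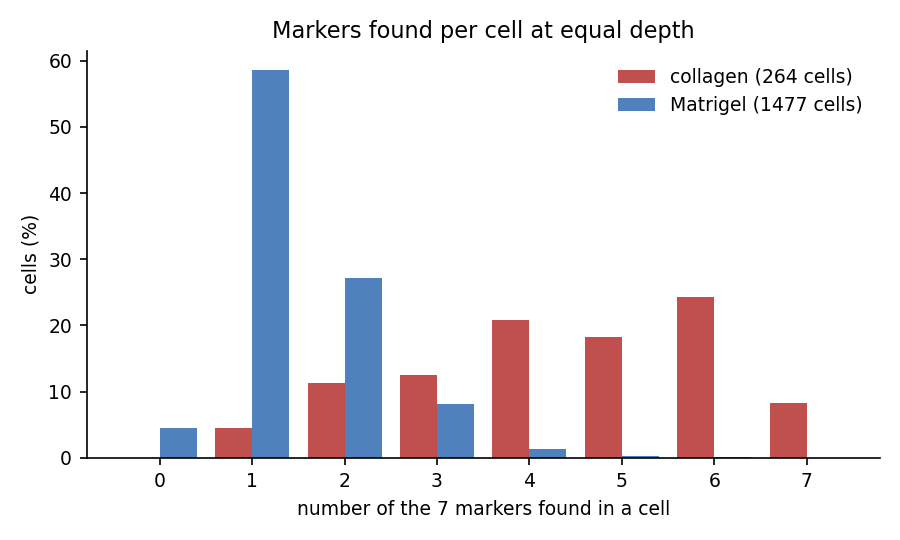
Percent of cells (vertical axis) by the number of the 7 markers found in a cell (horizontal axis) after thinning to equal depth, for 264 collagen cells (red) and 1477 Matrigel cells (blue). Matrigel cells peak at 1 marker and collagen cells at 6.

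Within the collagen culture, Msln, Ly6a, Clu and Anxa1 varied together from cell to cell. Across the 336 cells the Spearman rho of CPM was 0.55 for Msln with Anxa1, 0.49 for Clu with Anxa1 and 0.48 for Msln with Ly6a. It was 0.46 for Msln with Clu, 0.45 for Ly6a with Anxa1 and 0.38 for Ly6a with Clu. For scale, 97.5% of 9473 other genes had a rho below 0.20 with each of Msln, Ly6a and Anxa1, and below 0.19 with Clu. These cells share 1 library and differ in depth, so rho is given as a description, and these 4 genes were grouped after their values were seen. Over the depth bands and other settings tried, the 6 pairs ranged from 0.23 to 0.66.

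Presence and absence of the 4 were also compared. At equal depth 118 of 264 collagen cells held both Msln and Anxa1, where the product of their shares gives 87.4, and Anxa1 was in 80.3% of cells with Msln against 33.3% of cells without it. Clu and Anxa1 were together in 133 cells against 112 from the product, Msln and Clu in 124 against 105, and Ly6a and Clu in 105 against 86.2. Ly6a was together with Anxa1 in 92 cells against 72.0, and with Msln in 90 against 67.4. The phi of these 6 pairs was 0.31 to 0.47. In the middle of 3 depth bands it was 0.090 for Clu with Anxa1, 0.17 for Ly6a with Anxa1, 0.18 for Msln with Ly6a and 0.19 for Ly6a with Clu, below the 0.29 and 0.38 of Msln with Clu and with Anxa1. All 4 were together in 72 cells where the product gives 28.5, and all 4 were missing in 36 where it gives 7.39. Among the 84 cells with the highest Msln and the 84 with the highest Anxa1, 51 were shared, against 21 from the product.

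The remaining markers had lower rho values with these 4, and some of them still lay above those of 97.5% of other genes. Ly6e had a rho of 0.00 with Msln, 0.05 with Anxa1, 0.09 with Clu and 0.24 with its relative Ly6a, and its rho with depth was 0.22. Wfdc2 had a rho of 0.07 to 0.17 with every marker other than Tm4sf4. Tm4sf4 had a rho of 0.22 with Msln, 0.20 with Ly6a, 0.15 with Clu and 0.11 with Anxa1. The rho that 97.5% of other genes stayed below was 0.23 for Ly6e, 0.15 for Wfdc2 and 0.21 for Tm4sf4. Ly6e with Ly6a, Wfdc2 with Msln and with Clu, and Tm4sf4 with Msln exceeded it. By the limits of Msln, Ly6a, Clu and Anxa1 instead, those above were Ly6e with Ly6a, and Tm4sf4 with Msln and with Ly6a. Tm4sf4 with Ly6a was close, at 0.203 against the 0.196 of Ly6a, and Wfdc2 passed none of these limits.

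All 21 pairs were set beside the product of their shares. Of these, 18 were found together more often than the product, by any margin, and 12 were in the middle of 3 depth bands. Ly6e was in 90.9% of the cells, which leaves its pairs little room to differ from the product. Some of the 18 lay close to the product, such as Ly6e with Clu (171 cells against 170.9), Ly6e with Anxa1 (143 against 142.7) and Ly6a with Tm4sf4 (96 against 94.4). The same count over pairs of other genes is not given here, so the 18 are a description. The exceptions were Wfdc2 with Tm4sf4, Msln with Ly6e and Ly6e with Tm4sf4. Wfdc2 and Tm4sf4 were together in 78 cells against 85.8 from the product (phi -0.15, a correlation of presence), with a rho of -0.15. From the shallowest to the deepest of 3 depth bands that phi was -0.056, -0.40 and 0.040, while the rho was -0.11, -0.25 and -0.12. Among the 84 cells with the highest Wfdc2 and the 84 with the highest Tm4sf4, 19 were shared, against 21 from the product. Msln and Ly6e were together in 129 cells against 134, and Ly6e and Tm4sf4 in 184 against 187.

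**Figure D3:**
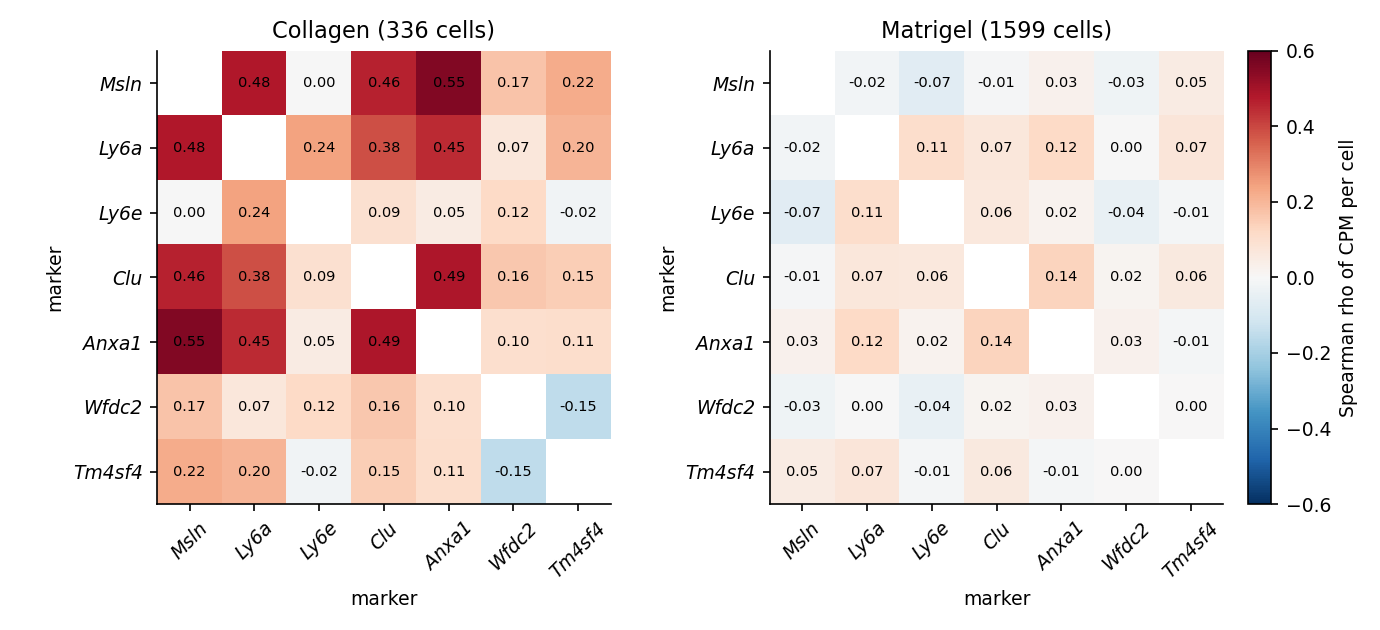
Spearman rho of CPM per cell for each of the 21 marker pairs, in 336 collagen cells (left) and 1599 Matrigel cells (right), with red above and blue below 0. Msln, Ly6a, Clu and Anxa1 form a block of 0.38 to 0.55 in collagen, and no Matrigel pair exceeds 0.14.

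Cells were then ordered by how many of Msln, Ly6a, Clu and Anxa1 they held. From 0 to 4 there were 36, 48, 47, 61 and 72 collagen cells. Wfdc2 was in 22.2% of cells with 0, 57.4% of cells with 3 and 40.3% of cells with all 4. Tm4sf4 was in 61.1% of cells with 0 and 84.7% of cells with all 4, and Ly6e was between 86.9% and 93.6% throughout. Lgr5, the receptor gene that marks crypt base stem cells, was at 57.4 CPM in cells with 0 and 8.02 CPM in cells with 4. S100a6, which encodes a calcium-binding protein, went from 1344 to 9619 CPM, and Lgals3, the galectin-3 gene, from 273 to 1085 CPM. Sprr1a, a cornified envelope gene, was at 5.34 CPM in cells with 0, 21.4 CPM with 3 and 312 CPM with 4. Muc3, which encodes a membrane mucin, showed no such order and was at 259 CPM with 0 and 52.7 CPM with 4.

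**Figure D4:**
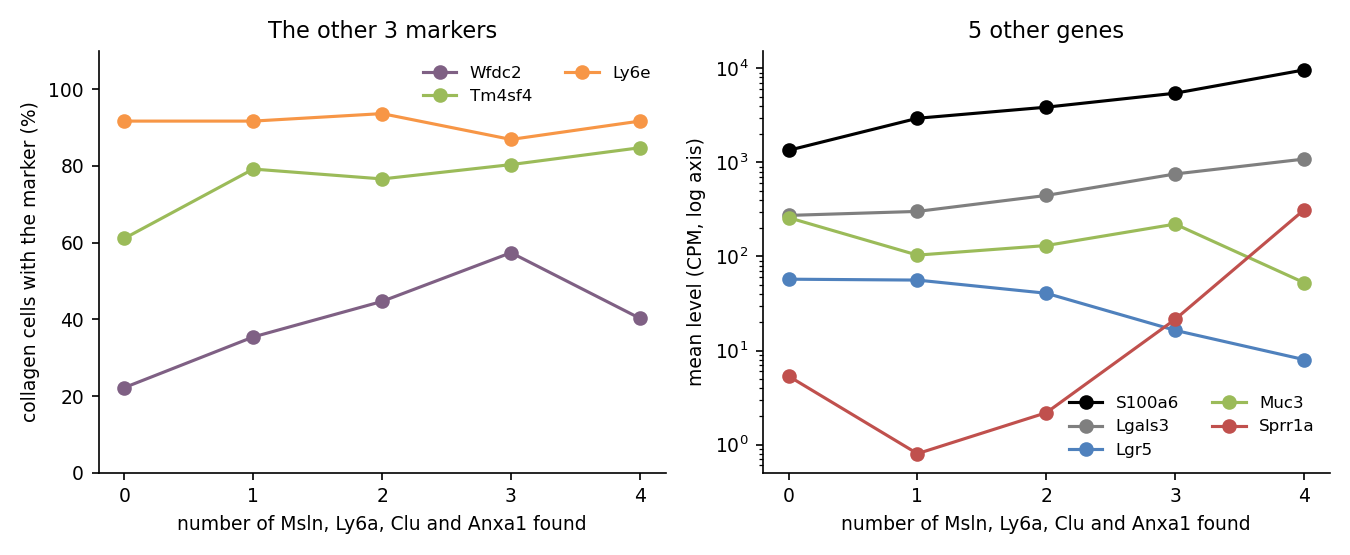
Collagen cells at equal depth by how many of Msln, Ly6a, Clu and Anxa1 they held (0 to 4, horizontal axes). Left, percent of cells with each of the other 3 markers. Right, mean CPM of 5 other genes on a log axis, where S100a6 reaches 9619 CPM and Lgr5 stands at 8.02 CPM in cells with all 4.

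Among 9473 genes found in at least 20% of collagen cells, the same partners returned for these 4 markers. S100a6 had a rho of 0.73 with Msln, 0.54 with Ly6a, 0.55 with Clu and 0.64 with Anxa1. S100a11, a second calcium-binding protein gene, had 0.64, 0.58, 0.51 and 0.67 in the same order. The third partner was Gsta1 for Msln (0.62), Anxa3 for Ly6a (0.53), Gsta4 for Clu (0.42) and Anxa5 for Anxa1 (0.55). Gsta1 and Gsta4 encode glutathione transferases, and Anxa3 and Anxa5 encode annexins. Counts of Gsta1 and S100a11 were fractional in 99.7% and 94.4% of values, as when reads are shared with similar genes, so their levels are uncertain. The lowest rho of all 4 markers was with Pigr, the receptor that carries antibodies across epithelium, at -0.59 for Msln, -0.49 for Ly6a, -0.39 for Clu and -0.57 for Anxa1. Next lowest were Jaml for Msln (-0.54), Lypd8 for Ly6a (-0.47), Rsrp1 for Clu (-0.36) and Acot1 for Anxa1 (-0.52).

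The other markers had other partners, and for Ly6e and Wfdc2 the likeness was weak. Ly6e was most like Nhp2 (0.37), Erh (0.36) and Rbm8a (0.35), genes of RNA-binding or ribonucleoprotein factors, and least like Smim22 (-0.29) and Gpi1 (-0.29). Wfdc2 was most like Ccnd1 (0.27), the cyclin D1 gene, Lsm2 (0.25) and Psmd2 (0.24), and least like Mbnl2 (-0.23) and Ppp1r12a (-0.22). Tm4sf4 was most like Emp1 (0.44), which encodes an epithelial membrane protein, Gsta1 (0.43) and Gsta4 (0.43). It was least like Slc12a2 (-0.38), a chloride cotransporter gene that is high in crypts, and Gpx2 (-0.30).

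Tm4sf4 also went with Krt20, Muc3 and Alpi. Its rho was 0.37 with Krt20, a keratin of differentiated surface cells, 0.32 with Muc3 and 0.29 with Alpi, the brush border alkaline phosphatase. Of these genes only Alpi is in the enterocyte list used here, while Krt20 and Muc3 are in the list for fetal or regenerating epithelium. For the other 6 markers the rho with Muc3 was -0.15 to -0.26 and with Alpi -0.10 to -0.18. Tm4sf4 was at -0.27 with Lgr5 and -0.24 with the proliferation gene Mki67, which had a rho of 0.13 with Wfdc2. In the 44 collagen cells whose 14 enterocyte genes summed to at least 1000 CPM, 40 held Tm4sf4 (90.9%, 78.3 to 97.5), at 602 CPM against 334 CPM over all collagen cells. The same 44 cells were low in the other markers, with Ly6a in 8 of 44 at 73.6 CPM, Msln in 19 at 91.8 CPM and Ly6e at 89.9 CPM against 211 CPM over all.

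Thinned collagen cells were also divided by presence of Wfdc2 and Tm4sf4. There were 32 with Wfdc2 only, 128 with Tm4sf4 only, 78 with both and 26 with neither. Krt20 was at 7.21 CPM in cells with Wfdc2 only and 156 CPM in cells with Tm4sf4 only, and Alpi at 14.8 and 109 CPM. In cells with both, Krt20 was at 85.7 CPM and Alpi at 80.4 CPM. In cells with neither they were at 12.3 and 32.6 CPM, so both genes were higher in the classes with Tm4sf4, with or without Wfdc2. Mki67 was at 121 CPM with Wfdc2 only and 41.2 CPM with Tm4sf4 only. The median sum of 16 G2/M genes was 340 CPM and 103 CPM in the same order, 346 CPM in cells with both and 404 CPM in cells with neither. The median sum of 14 stem cell genes was 757 CPM with Wfdc2 only, 346 CPM with Tm4sf4 only or with both, and 654 CPM with neither. Mki67 was at 89.8 CPM with both and 78.4 CPM with neither. Median depth before thinning differed little between the 4 classes, from 128194 to 142441 counts.

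A set of collagen cells rich in secretory genes lacked Msln. In 21 of the 336 cells the enteroendocrine, Paneth or goblet list summed to at least 1000 CPM, a limit set after the values were seen. Msln was in 0 of these 21 cells, which allows a share of up to 14.3%, and in 207 of the 315 others (65.7%, 60.2 to 70.9). Ly6a was in 2 of the 21, Anxa1 in 6, Wfdc2 in 6, Clu in 10, Tm4sf4 in 11 and Ly6e in 20. Median depth was 115778 counts in the 21 cells and 124660 in the others. Around the limit, between 500 and 2000 CPM, lay 1 collagen cell for the enteroendocrine list, 18 for the Paneth list and 7 for the goblet list.

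Among Matrigel cells rich in a gene list, those rich in enteroendocrine genes held Tm4sf4 most often. Of the 31 Matrigel cells with at least 1000 CPM of enteroendocrine genes, 24 held Tm4sf4 (77.4%, 58.9 to 90.4) at 497 CPM in sum. Tm4sf4 was in 36.0% of the 86 cells at that limit for the Paneth list and 34.7% of the 95 for the goblet list. Of the 1460 Matrigel cells below the limit for all 3 lists, 106 held it (7.26%, 5.98 to 8.71) at 6.00 CPM. Those 31 cells were shallower, with a median of 92265 counts against 181533, and 15 Matrigel cells lay between 500 and 2000 CPM of the enteroendocrine list. None of the 31 held Wfdc2, which allows a share of up to 9.68%, and 3 held Ly6a. In collagen 6 cells passed the same limit, of which 3 held Tm4sf4 and 0 held Msln, Ly6a, Clu or Anxa1. Without the cells above the limit for any of the 3 lists, the log2 ratio of Tm4sf4 between cultures was 5.63, above the 4.59 over all cells. Enterocyte-rich Matrigel cells also had it more often, in 40 of 122 (32.8%), while their Ly6e stood at 63.4 CPM against 127 CPM over all Matrigel cells.

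**Figure D5:**
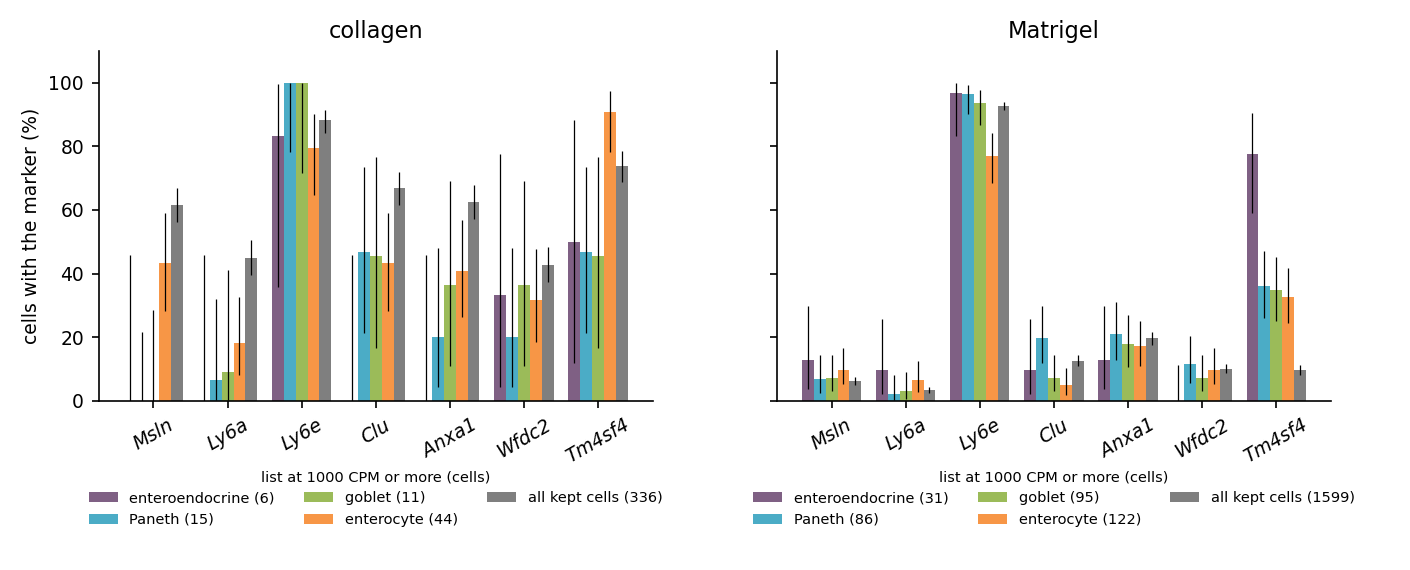
Percent of cells with each marker (unthinned, with 95% Clopper-Pearson intervals) in collagen (left) and Matrigel (right), for cells with at least 1000 CPM of each gene list and for all kept cells, with cell numbers in the keys. Msln has no bar in the enteroendocrine, Paneth and goblet sets of collagen, and Tm4sf4 reaches 77.4% in the enteroendocrine set of Matrigel.

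How many markers a Matrigel cell held differed by marker. Leaving Ly6e aside, 870 of the 1599 cells held none of the other 6 markers, 522 held 1, 168 held 2, 32 held 3, 6 held 4 and 1 held 5. No other of the 6 was in 19 of 53 cells with Ly6a, 91 of 201 with Clu and 55 of 99 with Msln. The same held for 175 of 314 cells with Anxa1, 93 of 161 with Wfdc2 and 89 of 155 with Tm4sf4. At equal depth Clu and Anxa1 were together in 51 Matrigel cells against 28.6 from the product of their shares, Ly6a and Clu in 13 against 6.87, and Msln and Ly6a in 1 against 1.42. All 51 Matrigel cells with Ly6a after thinning also held Ly6e, where the product gives 47.3. The highest rho of any pair across Matrigel cells was 0.14, for Clu with Anxa1.

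Both cultures shared 1 library, so free RNA of collagen cells could give counts in Matrigel cells, and its part in the Matrigel shares was not tested. Hashtags of the positive cells were compared as a description, since a hashtag share does not measure free RNA. Among the 6 markers other than Ly6e, only for Msln was the median collagen share higher in positive cells. For Ly6a, Clu and Tm4sf4, values below 6, 10 and 5 counts are missing from the deposited values. Cells with 1 count, which make up most cells with Msln, could therefore not appear for these genes. The median collagen hashtag share was 0.765% in cells with Msln and 0.505% in cells without it. It was 0.329% against 0.523% for Ly6a, 0.371% against 0.531% for Clu and 0.421% against 0.530% for Tm4sf4. It was 0.418% against 0.524% for Wfdc2 and 0.514% against 0.519% for Anxa1. Few Matrigel cells reached the level of a typical positive collagen cell: above the median CPM of collagen cells with the gene lay 1 Matrigel cell for Msln, 4 for Ly6a, 8 for Wfdc2, 13 for Clu, 14 for Anxa1 and 21 for Tm4sf4. For Ly6e the number was 482.

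A lone Matrigel cell held 5 markers besides Ly6e and was chosen for description after its values were seen. Of its 171326 counts, 93 were Msln, 239 Ly6a, 33 Clu, 54 Anxa1, 377 Tm4sf4 and 39 Ly6e, with 0 for Wfdc2. It had the highest Msln, Ly6a and Tm4sf4 of all Matrigel cells. S100a6 stood at 14102 CPM in it and Lgals3 at 4751 CPM, against 169 and 20.1 CPM over all Matrigel cells. Olfm4, a crypt base stem cell gene, was at 0 in it, where the smallest Olfm4 value above 0 was 12 counts. Olfm4 had a count in 79.2% of Matrigel cells, so other cells also lacked it. Hashtags of the lone cell were 1556 of Matrigel and 29 of collagen, a collagen share of 1.83%. The 6 cells with 4 markers besides Ly6e had collagen hashtag shares of 0% to 0.756% and at most 1 count of Msln. Without the lone cell the Matrigel sum of Ly6a was 3.64 CPM and that of Tm4sf4 11.6 CPM.

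Of 43 other genes listed for fetal or regenerating epithelium, 31 reached 5 CPM in either culture. Of these, 24 were at least 2-fold higher in collagen, 2 were lower and 5 lay between, with a median log2 ratio of 2.65. The largest ratios were those of Sprr1a (5.84), Lgals3 (5.09), S100a6 (5.06), Muc3 (4.99), Il1rn (4.59), Ly6d (4.19) and Anxa3 (3.96), and on the low side Ccn1 (-3.70), a YAP target gene. The list was chosen with earlier results known. The markers' closest relatives went separate ways. In the Ly6 and uPAR family Ly6d was at 18.5 against 0.0631 CPM, Lynx1 at 5.81 against 0.376, Ly6c1 at 4.19 against 0.0915 and Plaur, the urokinase receptor gene, at 112 against 29.0. Lypd8, at 380 against 470 CPM, and Ly6g6d, at 1.76 against 3.32 CPM, went the other way and were named after their values were seen. In the family of Tm4sf4, Tm4sf5 was at 324 against 235 CPM and Tm4sf20 at 291 against 276 CPM, so neither reached 2-fold. No relative of Wfdc2 among those measured reached 1 CPM in either culture.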

How the data were processed

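Cells of both cultures were captured together on the BD Rhapsody system and amplified by TAS-Seq, per the labels. The submitters' processing notes name cutadapt 4.1, STARsolo 2.7.10a, R 4.2.1 and the mouse build GRCm39, with no role or order. The values that the authors deposited for expression are unscaled expected counts, 1 per gene and cell. Of its values above 0, 75.6% were whole (within 1e-06). The sources used here do not give whether copies of a molecule were collapsed, so values are called counts, and intervals are too narrow if copies were counted. Hashtag counts, also deposited, are whole numbers, and 9 columns of other hashtags in that table were not used. The first 49 genes of the expression table, Ly6a, Clu, Tm4sf4, S100a6, S100a11 and Olfm4 among them, lack low values, with smallest values above 0 of 3.33 to 183. A cell without such a gene is below a limit set per gene.

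Cell names gave the culture. Of 2090 cells, 139 named as doublets were left out of the main comparisons. A filter (500 or more genes, mitochondrial counts of 30% or less) took out 16 Matrigel cells and 0 collagen cells. Doublets within a culture were not removed. Counts were summed per culture and scaled to CPM, and ratios are log2((collagen CPM + 1)/(Matrigel CPM + 1)), which understates low genes. Exact Poisson and Clopper-Pearson 95% intervals used scipy 1.17.1. The share allowed where 0 cells were found is 3 divided by the number of cells. This is below the upper Clopper-Pearson limit, which was 16.1% for Msln in the secretory collagen cells and 11.2% for Wfdc2 in the enteroendocrine Matrigel cells. For shares, 77972 counts, the percentile 10 of depth, were drawn from each cell without replacement (seed 7). The ratio and rho calculations were tested on simulated counts, and thinning on deposited collagen cells.

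The members, gene lists and tests were chosen with earlier results of these data known. Named genes are the 7 markers, the 8 listed fetal or regenerative genes with the largest absolute log2 ratio that reach 10 CPM, up to 4 relatives per family reaching 1 CPM, per marker the 3 genes of highest and the 2 of lowest rho, and Epcam, Muc3, Sprr1a, Lgr5, Olfm4, Mki67, Krt20 and Alpi. Vim, Wt1, Cldn5 and Ptprc were added as defining markers of other cell types, and Cpe and Upk3b as the highest genes of the mesothelial list. Alternatives concerned cell filter, hashtag purity, doublets, thinning, the counts that make a cell positive, pseudocount, scaling, depth bands and the kind of correlation. The alternative that set culture by a hashtag share of at least 60% could take in cells named doublet. Leaving out the lone Matrigel cell, the highest cells or the secretory cells was chosen after seeing the data.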

Additional observations from a re-analysis of the deposited data

Results flagged for a closer look

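Cells that the authors' names mark as doublets, which no main comparison used, more often held several of the markers than Matrigel cells did. Of 137 such cells, 30 held at least 4 of the 7 markers (21.9%, 15.3 to 29.8), against 38 of 1599 Matrigel cells (2.38%) and 239 of 336 collagen cells (71.1%), all unthinned. Msln was in 32 of the 137 and Tm4sf4 in 45, at 29.5 and 115 CPM, while Ly6e was in 92.0% of them and 92.7% of Matrigel cells. Their median collagen hashtag share was 49.8%.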

How the results depend on the processing

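The count of 6 of 7 markers at least 2-fold higher in collagen held under all 11 alternatives tried, and the number of pairs with a positive rho lay between 16 and 20 of 21. Pairs found together more often than the product of their shares numbered 12 in the middle band of depth and 19 without thinning, against 18. The share of collagen cells with at least 4 markers, 71.6%, was 77.2% when thinned to 125899 counts, 65.2% when 2 or more counts were asked, and 45.8% with 1 floor of 10 counts for all markers. The share of Matrigel cells with at least 3, 9.75%, was 12.5% without thinning, 6.50% with 2 or more counts and 2.38% with the common floor. The cause was not tested. The phi of Ly6e with Tm4sf4 turned to 0.032 without thinning and 0.0069 with the common floor, that of Msln with Wfdc2 to -0.072 and of Clu with Wfdc2 to -0.16 in the middle depth band, and that of Wfdc2 with Tm4sf4 to 0.040 in the deepest band. With 0 set to the lowest value of each gene, the log2 ratios of Ly6a, Clu and Tm4sf4 were 2.77, 2.59 and 3.14. No paired analysis was possible because each culture is 1 suspension. Depth limits the absence of a marker in a cell, above all for genes whose low values are missing.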
